A study of Mus musculus with 10 samples.

Results

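Mitochondrial beta-oxidation shortens fatty acids inside mitochondria, and 34 genes of this route were examined in brown adipose tissue (BAT) of mice that lack STAT5 in adipocytes. The genes were taken from a list of names and matched by symbol and Entrez gene identifier to the counts, which hold 24454 genes. Of the 34, 33 were measured well enough to be tested. Acsl6, an acyl-CoA synthetase, was too low to be tested, with 12 counts in control replicate 3 and 0 or 1 count in each of the other libraries.

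RNA-Seq was performed on BAT of male mice, with 5 control and 5 Stat5Adipoq libraries. Stat5Adipoq mice carry floxed Stat5a and Stat5b alleles and a Cre transgene under the Adipoq promoter, which is active in brown and white adipocytes, so the other cells of the tissue keep both genes. The methods describe controls as littermates with the floxed alleles but no Cre, and the labels give their genotype as wild type. The strain was C57BL/6N, and by the methods the mice were 2 months old, had free access to standard chow and, in these samples, were labelled basal.

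Fatty acids are activated to acyl-CoA by synthetases, passed to carnitine by CPT1 at the outer mitochondrial membrane, and returned to CoA by CPT2 inside. Each turn of the spiral then runs through an acyl-CoA dehydrogenase, a hydratase, a hydroxyacyl-CoA dehydrogenase and a thiolase, with separate enzymes for long, medium and short chains. Electrons from the acyl-CoA dehydrogenases pass through the electron transfer flavoprotein to the respiratory chain. Brown adipocytes burn fatty acids this way to fuel heat production by UCP1.

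The largest changes among the members concerned the mitochondrial trifunctional protein, which carries out the last 3 reactions of the spiral on long chains. Its subunits are encoded by Hadha (Entrez 97212), which holds the hydratase and the hydroxyacyl-CoA dehydrogenase, and Hadhb (Entrez 231086), which is the thiolase. The genes lie head to head on chromosome 5 of GRCm38, Hadha on the minus strand from 30119423 to 30154980 and Hadhb on the plus strand from 30155253 to 30184593, with start sites 273 bases apart. Their promoter windows in RefSeq for GRCm38.p6, from 250 bases before to 50 after the start, therefore share 228 bases. They are shown because both mRNAs were higher in Stat5Adipoq BAT. Capitals mark a match to TTCNNNGAA, the palindromic core consensus known for STAT5. Both windows hold the same match, at chr5:30155128-30155136, between the start sites.
Hadha, chr5:30154931-30155230, minus strand: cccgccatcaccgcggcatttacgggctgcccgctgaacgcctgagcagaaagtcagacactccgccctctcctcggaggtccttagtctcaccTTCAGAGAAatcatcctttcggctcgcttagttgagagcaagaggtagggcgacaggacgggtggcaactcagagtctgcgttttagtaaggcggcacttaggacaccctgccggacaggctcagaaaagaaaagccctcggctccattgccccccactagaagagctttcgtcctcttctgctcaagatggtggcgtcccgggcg
Hadhb, chr5:30155003-30155302, plus strand: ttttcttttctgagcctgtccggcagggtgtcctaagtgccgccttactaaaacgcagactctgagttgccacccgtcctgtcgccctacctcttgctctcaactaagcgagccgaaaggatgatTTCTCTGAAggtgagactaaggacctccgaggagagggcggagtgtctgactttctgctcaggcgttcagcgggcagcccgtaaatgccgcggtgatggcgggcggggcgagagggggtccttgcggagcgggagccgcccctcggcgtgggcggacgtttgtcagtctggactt

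Promoter windows were matched for 27 of the 34 genes, 31 windows in all. TTCNNNGAA, searched on both strands, occurred in 3 of the 31 (9.68%), those of Hadha and Hadhb (the same site) and Cpt2. Among all 32851 windows of the same length it occurred in 8.3%. In the Cpt2 window it read TTCTGTGAA and lay at chr4:107923781-107923789. The window of Acadl, the other member that rose, held no match. The DR1 element known for PPAR, a direct repeat of AGGTCA with 1 base between the copies, matched 0 of the 31 windows and 0.0396% of all windows. A single AGGTCA, which DR1 also contains, was present in the windows of Acadm, Acadvl, Acsl6, Cpt1a and Echs1, 16.1% of the member windows and 16.3% of all windows. A match describes letters in the window and says nothing about binding.

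The libraries held between 8488129 and 19514904 counts on genes, which is the depth behind the values, given as TMM-scaled CPM, the counts of a gene relative to all counts of its library. Stat5a was between 86.9 and 130.4 CPM in controls and between 15.8 and 20.7 CPM in Stat5Adipoq BAT, and Stat5b was between 76.6 and 91.9 CPM and between 21.0 and 22.9 CPM, so every library matched its label. All 10 listed brown adipocyte markers were measured, with Ucp1 between 5402 and 13831 CPM in controls and between 7843 and 12661 CPM in Stat5Adipoq BAT. Of these 10, Cox7a1 was called higher (388 to 475 CPM on average, log2 fold change 0.29, adjusted p = 0.040) and the other 9 did not pass, Dio2 with a log2 fold change of -1.07 (adjusted p = 0.34) and Cidea with -0.20 (adjusted p = 0.27). Control replicate 3 stood apart, because its 17 skeletal muscle markers summed to 5545 CPM. Its 11 liver markers summed to 287 CPM, beside 60.8 to 190.3 CPM in the other controls and 31.0 to 84.8 CPM in Stat5Adipoq libraries. The mean of log2(CPM + 0.5) over these markers was 3.49 in control replicate 3 and between -0.18 and 0.52 in every other library. All 11 had a fold change below 0, and Cyp2e1, which made up 180.1 of the 287 CPM and was 188 CPM in control replicate 4, was called lower (adjusted p = 0.037). The muscle markers summed to 498 CPM in control replicate 5, to between 42.5 and 124 CPM in the other controls and to between 51.7 and 116 CPM in Stat5Adipoq libraries. All 17 muscle markers were tested, 16 had a fold change below 0 and 0 passed the threshold. Skeletal muscle also oxidises fatty acids, so the number of called members is given with and without control replicates 3 and 5, singly and together. Schwann cell markers summed to between 135 and 534 CPM in controls and between 122 and 232 CPM in Stat5Adipoq BAT.

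Levels of the members are compared with each other per kilobase of transcript, using 1 principal transcript per gene in GENCODE. Per full transcript, in control BAT the thiolase Acaa2 and the dehydrogenases Acadvl and Acadl were highest, at 1558, 1526 and 1468 CPM per kilobase, followed by Acadm at 1158 CPM per kilobase. Acsl1 was the highest synthetase at 848 CPM per kilobase, and Acsl3 and Acsl4 were at 13.7 and 7.69 CPM per kilobase. The lowest tested member was Cpt1a, the CPT1 isoform of liver, at 5.48 CPM per kilobase. Cpt1b, the isoform known from muscle and brown fat, was listed at 12.4 CPM per kilobase. This value is uncertain, because the exons of a read-through gene, Gm44502, cover 81.4% of the exon bases of Cpt1b on the same strand, and Gm44502 is listed at 0 in all 10 libraries. Hadhb was at 193.5 CPM per kilobase and Hadha at 772 CPM per kilobase, although they form one complex. Of the 50-base words of Hadhb, 62.4% also occur in the pseudogenes Gm13910 and Gm9108, so that reads of this length cannot be placed with certainty, and per kilobase of unshared words Hadhb was at 515 CPM and Hadha at 777 CPM. The order depends on this choice. Per kilobase of unshared words Etfb was highest at 3372 CPM, Acadvl followed at 2008 CPM and Acaa2 at 1558 CPM, and Cpt1b was at 176.4 CPM. These values divide all counts of a gene by its unshared length alone. They are too high where reads on shared words were also counted, which was not tested. These limits act on libraries of both genotypes.

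**Figure D1:**
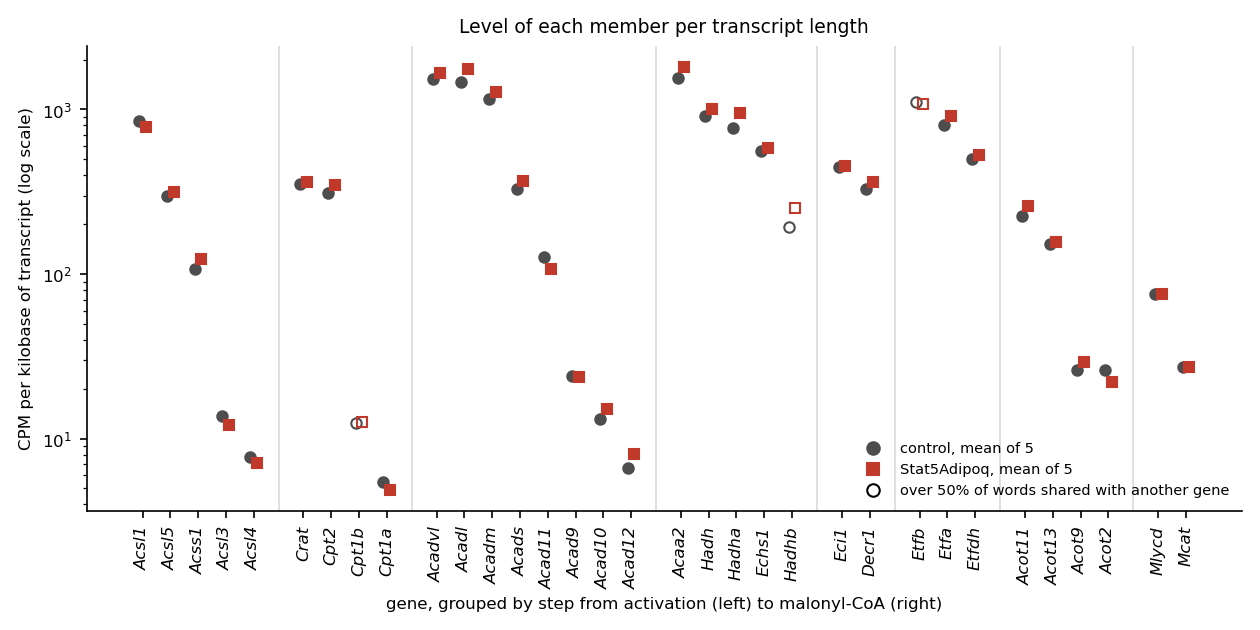
Mean level of each tested member in CPM per kilobase of transcript (log scale), with genes grouped by step, control as circles and Stat5Adipoq as squares, and open symbols for genes with over 50% of their words shared with another gene. Per full transcript, levels span from 5.48 CPM per kilobase for Cpt1a to 1558 for Acaa2 in control BAT (Etfb, with 67.3% shared words, is higher per unshared kilobase), and the difference between genotypes is small beside the differences between genes.

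The main question was whether mRNAs of beta-oxidation differ between control and Stat5Adipoq BAT. By edgeR's quasi-likelihood test with p-values adjusted over all 13568 tested genes and a threshold of 0.05, 3 of the 33 tested members were higher in Stat5Adipoq BAT (Hadhb, Hadha and Acadl) and 0 were lower. That is 9.09% of the members, beside 1.4% of all tested genes that were higher and 1.31% that were lower. Without adjustment, 12 members had p-values below 0.05, 10 with a fold change above 0 and 2 below 0 (Acsl3 and Acad11), as did 15.21% of all genes. DESeq2's Wald test also called Etfa and Acads higher and 0 members lower, and it called 2.4% of all genes higher. Of the 33 members, 25 had a fold change above 0, beside 49.23% of all genes, and their median log2 fold change was 0.09, beside -0.003 for all genes. Over the 10 fits that left out 1 library, 21 to 26 members had a fold change above 0. The median log2 fold change of the members was then between 0.05 and 0.13. Both were lowest without control replicate 5. The libraries of both genotypes did not overlap for 6 members, all higher in Stat5Adipoq BAT (Hadhb, Hadha, Acadl, Acadm, Acads and Etfa). This is 18.2% of the tested members, beside 2.35% of all genes for which all Stat5Adipoq libraries were higher and 2.04% for which they were lower. Together the members took 3.21% ± 0.163 (SD, n = 5) of the counts in control and 3.47% ± 0.0693 (SD, n = 5) in Stat5Adipoq libraries. These totals overlapped, with control replicate 3 at 3.41% and Stat5Adipoq replicate 2 at 3.38%, and their difference was not tested. The 5 general adipocyte markers did not pass the threshold, with log2 fold changes of -0.01 for Plin1, -0.0011 for Lipe, -0.07 for Adipoq, -0.16 for Fabp4 and 0.19 for Pparg. White adipocyte markers summed to between 109 and 145 CPM in controls and between 37.3 and 115 CPM in Stat5Adipoq libraries. Of the 4 tested, 1, Retn, was called lower (86.0 to 29.7 CPM on average, log2 fold change -1.53, adjusted p = 0.023). Hoxc8 (log2 fold change -1.24) and Nnat (-0.17) were below 0 and Lep (0.62, 18.4 to 28.2 CPM) above 0, none past the threshold. The part of these markers in the result was not tested. In tissue, a change in the share of adipocytes and a change of mRNA per adipocyte cannot be told apart.

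**Figure D2:**
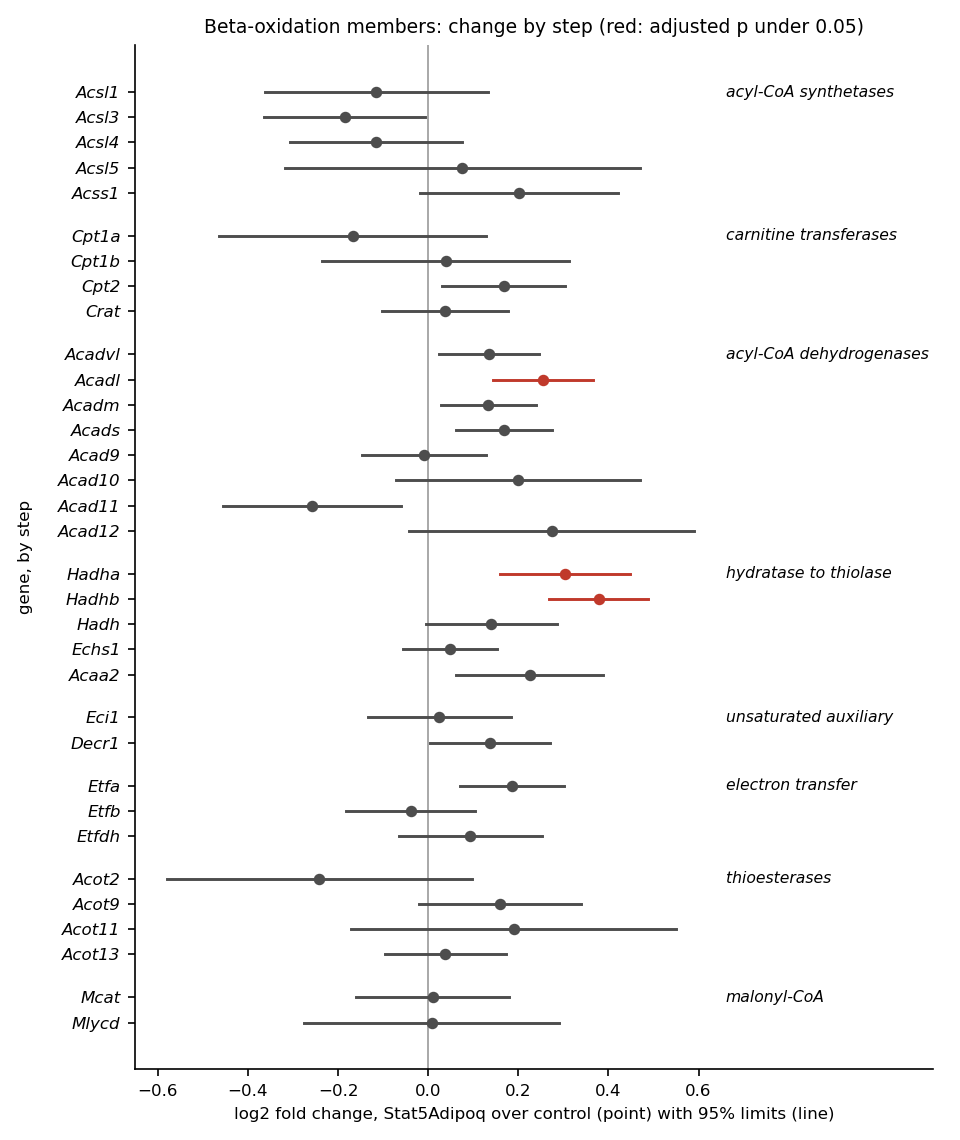
Log2 fold change of Stat5Adipoq over control for the 33 tested members, grouped by step, with 95% confidence limits from edgeR as lines and members past the threshold in red. Only Hadha, Hadhb and Acadl are red, and 25 of 33 points lie above 0.

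By step, the trifunctional protein and the dehydrogenases held the 3 calls. Of all tested genes, 1.4% were called higher, 1.31% were called lower and 49.23% had a fold change above 0. Of the 5 enzymes from hydratase to thiolase, 2 were higher, and all 5 had a fold change above 0 (median log2 fold change 0.23). Of the 8 acyl-CoA dehydrogenases, 1 was higher and 6 had a fold change above 0 (median 0.15). None of the 5 tested synthetases (median -0.11), 4 carnitine transferases (0.04), 2 auxiliary enzymes for unsaturated chains (0.08), 3 electron transfer genes (0.09), 4 thioesterases (0.10) or 2 genes of malonyl-CoA metabolism (0.01) passed the threshold. By chain length, the 3 called genes act on long chains and were 3 of 12 tested members for that class, 7 of which had a fold change above 0. Of the 7 members for medium and short chains 0 passed, 3 had an unadjusted p-value below 0.05 and all 7 had a fold change above 0. The difference between the classes was not tested.

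Hadhb was 399, 389, 422, 389 and 383 CPM in control replicates 1 to 5 and 509, 498, 509, 554 and 505 CPM in Stat5Adipoq replicates 1 to 5. All Stat5Adipoq libraries were above all controls. The mean rose from 396 ± 15.2 to 515 ± 22.3 CPM (SD, n = 5 each), a log2 fold change of 0.38 with a standard error of 0.05 (edgeR adjusted p = 0.0024; exact permutation test of log2 CPM, two-sided, p = 0.0079, the smallest that 5 against 5 allow). In percent, Hadhb was 30.0% higher, with limits of 20.5% and 40.2%. It stayed called in each of the 10 fits that left out 1 library and in the 11 other settings.

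Hadha was 3164, 2874, 3527, 3058 and 2879 CPM in control replicates 1 to 5 and 3543, 3730.4, 3972, 4019.8 and 3880.1 CPM in Stat5Adipoq replicates 1 to 5. The groups did not overlap, but control replicate 3, the library with muscle transcripts, was just below the lowest Stat5Adipoq library. Its log2 fold change was 0.30 (edgeR adjusted p = 0.031, SE 0.07). The call was kept without control replicate 3 (adjusted p = 0.0058) or Stat5Adipoq replicate 1 and lost in the other 8 fits that left out 1 library, with an adjusted p of at most 0.090. Over all 10 fits its log2 fold change stayed between 0.28 and 0.36. Hadha was also called in the 11 other settings.

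Acadl (Entrez 11363) encodes long-chain acyl-CoA dehydrogenase and lies on chromosome 1 from 66830839 to 66863309. It was 2925, 2819, 2909, 2825 and 2589 CPM in controls and 3343, 3316, 3516, 3225 and 3389 CPM in Stat5Adipoq libraries. The genotypes did not overlap and differed by a log2 fold change of 0.26 (edgeR adjusted p = 0.022, SE 0.05), or 19.4% with limits of 10.5% and 28.9%. The call was lost in 4 of the 10 fits that left out 1 library (control replicate 2 or 4 or Stat5Adipoq replicate 3 or 5), with the replicate block, with a muscle score as covariate and without both control replicates 3 and 5. Its log2 fold change stayed between 0.23 and 0.27 over all alternatives, and its adjusted p reached at most 0.067.

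**Figure D3:**
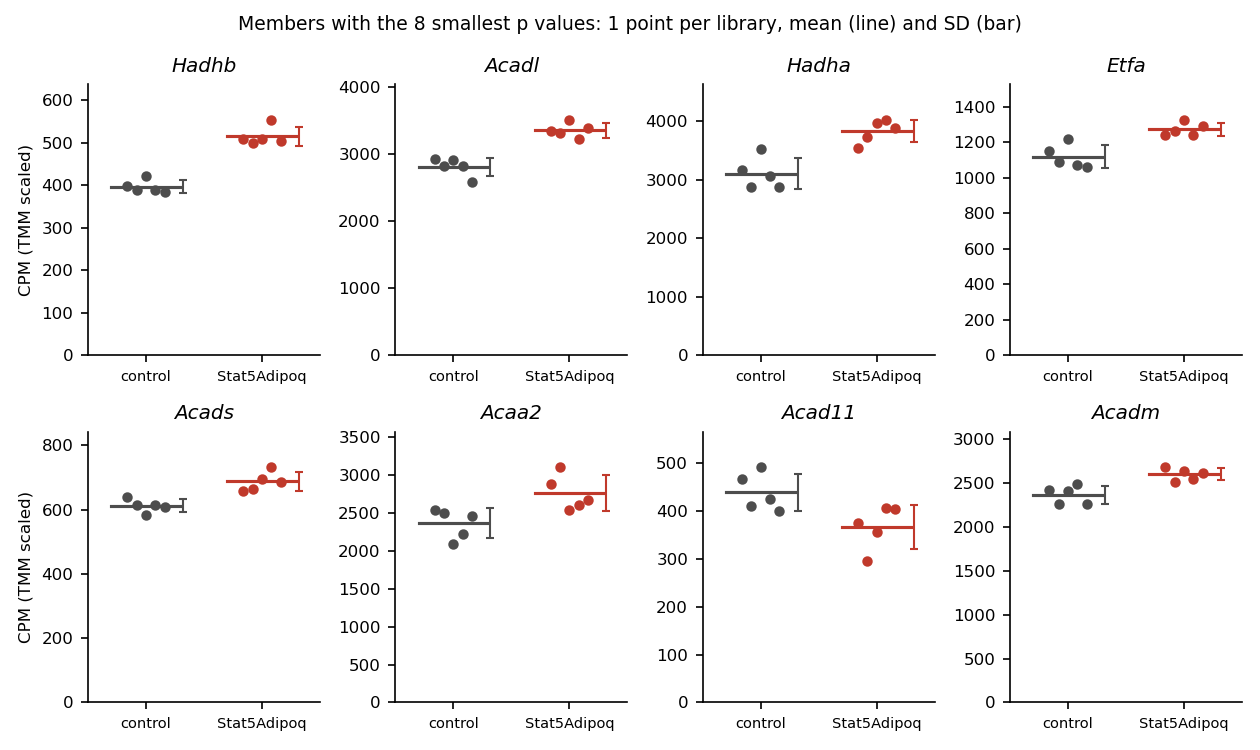
CPM of the members with the 8 smallest p-values, with 1 point per library (control replicates 1 to 5 and Stat5Adipoq replicates 1 to 5 from left to right within a group), the mean as a line and the SD as a bar beside it. Hadhb shows a gap, with controls at most at 422 CPM and Stat5Adipoq libraries at least at 498 CPM, while Acaa2 and Acad11 overlap between genotypes.

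Acads, Acadm and Acadvl had fold changes above 0 without passing the threshold. Acads, for short chains, was 639, 615, 583, 614 and 609 CPM in controls and 659, 665, 696, 733 and 686 CPM in Stat5Adipoq libraries, without overlap (log2 fold change 0.17, edgeR adjusted p = 0.10). Acadm, for medium chains, was 2424, 2263, 2405, 2493 and 2263 CPM and 2682, 2513, 2640.3, 2546 and 2617 CPM, again without overlap (log2 fold change 0.13, 95% limits 0.03 and 0.24, adjusted p = 0.21). Acadvl, for very long chains, was 3394, 3264, 3485, 3258 and 3144 CPM and 3649, 3427, 3551, 3791 and 3746 CPM (log2 fold change 0.13, adjusted p = 0.22). In Acadvl only control replicate 3 and Stat5Adipoq replicate 2 overlapped, and 42.9% of its exon bases lie opposite exons of Dvl2, while Dvl2 itself had between 84 and 231 counts. Whether counting used the strand is not given in the sources used here.

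Acad9, which also serves in the assembly of respiratory complex I, had a log2 fold change of -0.01 (95% limits -0.15 and 0.13). Its upper limit lay below the lower limit of Hadhb, 0.27. Acad11 is a less studied dehydrogenase and had the largest fold change below 0 among the members. It was 466, 411, 492, 426 and 401 CPM in controls and 376, 295, 356, 406 and 404 CPM in Stat5Adipoq libraries, with a log2 fold change of -0.26 (edgeR adjusted p = 0.19, SE 0.09). The lowest control lay within the range of Stat5Adipoq libraries. Acad10 and Acad12, neighbours on chromosome 5 that share 20.4% and 20.7% of their 50-base words, had log2 fold changes of 0.20 and 0.27 with limits that included 0.

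The other enzymes of the spiral were also not called. Acaa2, the thiolase for medium chains, was 2538, 2499, 2086, 2218 and 2465 CPM in controls and 2887, 3105, 2533, 2605 and 2669 CPM in Stat5Adipoq libraries (log2 fold change 0.23, limits 0.06 and 0.39, edgeR adjusted p = 0.15). Control replicate 1 overlapped with Stat5Adipoq replicate 3. Hadh, the short-chain hydroxyacyl-CoA dehydrogenase, was 1820.0, 1710.3, 1562, 1513 and 1550.2 CPM and 1928, 1905, 1740.2, 1661 and 1754 CPM (log2 fold change 0.14, adjusted p = 0.35). Echs1, the short-chain hydratase, had a log2 fold change of 0.05 (95% limits -0.06 and 0.15). Decr1, the dienoyl-CoA reductase, was 1019, 945, 1095, 951 and 884 CPM and 1123, 1064, 1045, 1053 and 1097 CPM, where control replicate 3 lay within the Stat5Adipoq range (log2 fold change 0.14, adjusted p = 0.31), and the isomerase Eci1 had a log2 fold change of 0.02.

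Of the electron transfer genes, Etfa came closest to the threshold. It encodes the alpha subunit of the electron transfer flavoprotein and was 1154, 1091, 1221, 1075 and 1062 CPM in controls and 1242, 1265, 1328, 1245 and 1291 CPM in Stat5Adipoq libraries, without overlap (log2 fold change 0.19, SE 0.05, edgeR adjusted p = 0.095). DESeq2's Wald test called it, and so did edgeR without control replicate 3 (adjusted p = 0.031). Its partner Etfb had a log2 fold change of -0.04 (95% limits -0.18 and 0.10), and 58.2% of the exon bases of Etfb are covered by other genes on the same strand. Etfdh, the oxidoreductase that passes the electrons on, was 1195, 1097, 1387, 1189 and 1049.8 CPM and 1338, 1201, 1256, 1219.8 and 1298 CPM, with control replicate 3 highest of all (log2 fold change 0.09, adjusted p = 0.61).

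**Figure D4:**
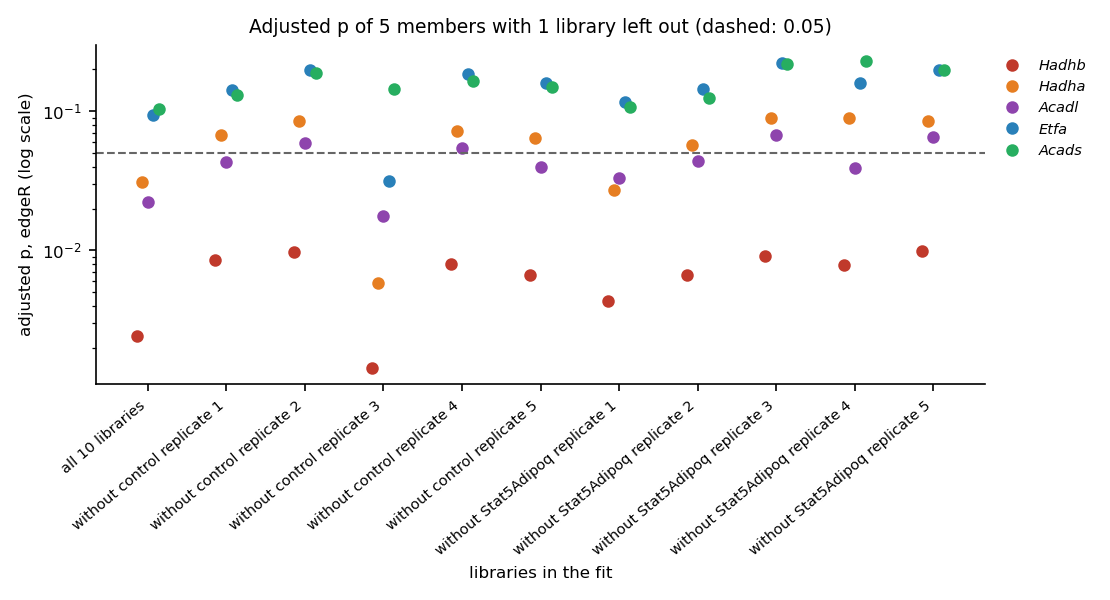
Adjusted p from edgeR (log scale) of Hadhb, Hadha, Acadl, Etfa and Acads with all 10 libraries and with each library left out in turn, and the threshold of 0.05 as a dashed line. Hadhb stays below the line throughout, Hadha drops under it only with all libraries, without control replicate 3 or without Stat5Adipoq replicate 1, and Acads stays above it.

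Genes for activation and entry of fatty acids did not change past the threshold. Acsl1, the main long-chain synthetase of adipose tissue, was 3404, 3019, 4081, 3498 and 2524 CPM in controls and 3418, 2861, 2693, 2987 and 3302 CPM in Stat5Adipoq libraries (log2 fold change -0.11, limits -0.36 and 0.13). The control range contained all Stat5Adipoq libraries. Acsl3, Acsl4 and Acsl5 had log2 fold changes of -0.19, -0.12 and 0.08. Acss1, which activates acetate in mitochondria, was 361, 344, 368, 506 and 361 CPM and 414, 429, 454, 501 and 435 CPM (log2 fold change 0.20, edgeR adjusted p = 0.38). Control replicate 4 was the highest library, and without it the log2 fold change of Acss1 was 0.32 with an adjusted p of 0.033.

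Cpt1b, which carries the step that malonyl-CoA inhibits in brown fat, was 39.9, 31.5, 43.5, 35.3 and 28.8 CPM in controls and 32.6, 43.4, 29.7, 37.3 and 40.1 CPM in Stat5Adipoq libraries (log2 fold change 0.04, limits -0.24 and 0.31). Cpt1a was 20.1, 20.8, 31.9, 22.4 and 23.0 CPM and 22.9, 22.4, 15.9, 20.5 and 23.0 CPM (log2 fold change -0.17, limits -0.46 and 0.13). Both overlapped widely between the genotypes, and control replicate 3 was highest for both. Cpt2 was 766, 711, 801, 718 and 673 CPM and 796, 757, 823, 862 and 883 CPM (log2 fold change 0.17, limits 0.03 and 0.30, edgeR adjusted p = 0.22). Control replicates 1 and 3 lay within the Stat5Adipoq range. Crat, which acts on short acyl groups, had a log2 fold change of 0.04.

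None of the thioesterases, which split acyl-CoA again, passed the threshold. Acot11, a brown fat thioesterase induced by cold, was 1163, 1182, 1759.8, 1169.5 and 1143 CPM in controls and 1041, 1188, 1526, 1807 and 1757 CPM in Stat5Adipoq libraries (log2 fold change 0.19, limits -0.17 and 0.55). Control replicate 3 and Stat5Adipoq replicates 3, 4 and 5 were high and the other 6 libraries low. Acot2, a thioesterase of the mitochondrial matrix, was 64.9, 54.6, 78.2, 51.1 and 39.1 CPM and 54.9, 42.6, 42.3, 48.6 and 54.5 CPM (log2 fold change -0.24, limits -0.58 and 0.10), and other Acot genes hold 27.7% of its 50-base words. Acot9 and Acot13 had log2 fold changes of 0.16 and 0.04. Mlycd, which removes malonyl-CoA, was 157, 146, 214, 154 and 130.4 CPM and 163, 127, 157, 170.1 and 189 CPM, with a log2 fold change of 0.0078. Mcat, an enzyme of mitochondrial fatty acid synthesis, had a log2 fold change of 0.011.

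Of 80 related genes around the route, 78 were tested. None was called higher and 7 were lower, 8.97% of those tested beside 1.31% of all genes. These lists were written with earlier results of these data known, so the shares do not test whether related genes fell more often. Among the lower genes were Slc27a1, Acacb, Echdc1, Echdc2, Ehhadh and Nrip1. Acacb, the acetyl-CoA carboxylase that makes malonyl-CoA at the mitochondrial membrane, was 3573, 3788, 3826, 3877 and 3779 CPM in controls and 2345, 2576, 2591, 3267 and 3109 CPM in Stat5Adipoq libraries. All Stat5Adipoq libraries were below all controls, and Stat5Adipoq replicates 4 and 5 were the nearest to them. The log2 fold change was -0.44 (adjusted p = 0.019, SE 0.09), and the call was lost without Stat5Adipoq replicate 2 or 3 (adjusted p up to 0.062) and without both control replicates 3 and 5. Ehhadh, the peroxisomal bifunctional enzyme that does the work of Hadha in that organelle, was 302, 218, 296, 275 and 212 CPM and 182, 155, 92.7, 123 and 168 CPM. It fell by a log2 fold change of 0.85 (edgeR adjusted p = 0.021, SE 0.17), and the call was lost without control replicate 1 or Stat5Adipoq replicate 4.

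Slc27a1, a fatty acid transport protein, was 363, 325, 365, 322 and 309.5 CPM in controls and 259, 218, 204, 256 and 241 CPM in Stat5Adipoq libraries. This was a log2 fold change of -0.52 without overlap (edgeR adjusted p = 0.0050). Echdc1, which removes ethylmalonyl-CoA, a side product of fatty acid synthesis, was 131, 129.7, 134, 138 and 137 CPM and 95.7, 97.6, 85.3, 98.4 and 88.2 CPM (log2 fold change -0.53, adjusted p = 0.00050). Neither gene overlapped between the genotypes, and both stayed called in each of the 10 fits that left out 1 library. Echdc2, a related hydratase domain protein, was 26.2, 28.9, 29.6, 31.6 and 28.6 CPM in controls and 22.6, 18.9, 19.8, 21.5 and 16.5 CPM in Stat5Adipoq libraries (log2 fold change -0.55, adjusted p = 0.0062). All Stat5Adipoq libraries of Echdc2 were below all controls. Nrip1, a corepressor of nuclear receptors, was 24.3, 15.2, 19.0, 21.2 and 19.6 CPM and 17.1, 11.99, 9.97, 10.2 and 8.39 CPM, where Stat5Adipoq replicate 1 overlapped with controls (log2 fold change -0.78, adjusted p = 0.039). The call for Nrip1 was lost in 7 of the 10 fits that left out 1 library, with the muscle score and without both control replicates 3 and 5.

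By list, among those described here, 1 of 9 tested genes of malonyl-CoA supply and 1 of 11 of fatty acid delivery were lower. The others were 2 of 18 of other acyl-CoA metabolism, 1 of 15 peroxisomal counterparts and 1 of 13 regulators. In carnitine supply 0 of 4 were lower, and the share among all genes was 1.31%. The carnitine-acylcarnitine carrier Slc25a20 was 728, 701, 922, 690.0 and 634 CPM in controls and 807, 787, 734, 810.2 and 824 CPM in Stat5Adipoq libraries (log2 fold change 0.11, limits -0.08 and 0.30). Here control replicate 3 was again the highest library. Ppara, a nuclear receptor that drives genes of this route, was 819, 576, 585, 716 and 748 CPM in controls and 823, 926, 700.3, 889.9 and 814 CPM in Stat5Adipoq libraries (log2 fold change 0.27, limits 0.04 and 0.50, adjusted p = 0.24). Its coactivator Ppargc1a was 101, 107, 159, 162 and 80.9 CPM and 169, 122, 155, 147 and 203 CPM (log2 fold change 0.38, limits -0.03 and 0.79, adjusted p = 0.37). Both overlapped between the genotypes.

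Without control replicate 3, edgeR called 4 members (Hadhb, Hadha, Acadl and Etfa). Leaving out control replicate 5 alone gave 2 called members (Hadhb and Acadl). In that fit 21 of the 33 members had a fold change above 0, with a median log2 fold change of 0.05. Without both control replicates 3 and 5 edgeR called 2 members (Hadhb and Hadha). Without both, the libraries did not overlap for 9 members that were higher and 1, Acad11, that was lower in Stat5Adipoq BAT, beside 5.23% of all genes with all Stat5Adipoq libraries above and 4.92% below the remaining 3 controls. A single library left out changed the number of called members to between 1 and 4, and it was 1, Hadhb, without control replicate 2, Stat5Adipoq replicate 3 or Stat5Adipoq replicate 5. Without control replicate 4 the 2 called members were Hadhb and Acss1. The number of genes called among all 13568 moved too, to between 185 and 442.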

How the data were processed

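RNA of BAT from control and Stat5Adipoq mice (5 libraries each) was sequenced with single reads of 50 bases from a stranded mRNA kit. Per the submitters' processing notes and the methods, the authors aligned reads to GRCm38 with STAR 2.5.0b, counted them over exons with featureCounts 1.5.0-p1 and deposited raw counts per Entrez gene. Their table of the comparison holds fold changes and p-values from DESeq2 1.16.1. Only its gene symbols were read, and Acsl6 was named from RefSeq.

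Genes whose size-factor normalised counts summed to more than 45 over the 10 libraries were kept, which left 13568. The genotypes were compared with edgeR 4.0.16 (quasi-likelihood F test, TMM, genotype alone), with Benjamini-Hochberg adjustment over these genes. The SE is the absolute fold change over the root of F, from which 95% limits were taken. Permutation tests were exact, two-sided and used log2(CPM + 0.5). Alternatives were DESeq2 1.42.0, limma-voom (limma 3.58.1), other normalizations and filters, a replicate block, robust dispersions, a muscle score and leaving out each library. Leaving out control replicates 3 and 5 together, and DESeq2 without control replicate 3, were chosen after the data were seen. The procedure was tested on simulated data.

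The sources give 5 libraries per group without naming the mice, so p-values measure the spread between libraries, which may in part be technical. Whether counting used strand is not given in the sources used here. Values in every library are given for called members, for the 8 members with the smallest p-values and for at least 1 member of each step, as well as for called related genes (1 is not reported here), Slc25a20, Ppara and Ppargc1a. The members were fixed by the given list of names, and how that list was made is not described in the sources used here. The other lists were written with earlier results of these data known. Shared words and exon overlaps come from GENCODE M21, gene positions and promoters from RefSeq GRCm38.p6. Libraries of a genotype differed by more than sampling noise.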

Additional observations from a re-analysis of the deposited data

Results flagged for a closer look

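In 8 of 90 sets of 5 libraries, 1 library lay far from the rest, and chance alone does this in about 1 of 20 sets (4.5 here). In control replicate 3, the library with muscle and liver transcripts, Acot11 was 1759.8 CPM against 1143 to 1182 CPM in the other controls, Cpt1a was 31.9 CPM against 20.1 to 23.0 CPM, and Acot9 was 54.7 CPM against 42.8 to 45.8 CPM. The part of other tissues in these values was not tested. In control replicate 4, the deepest library, Acss1 was 506 CPM against 344 to 368 CPM and Mcat was 41.9 CPM against 52.7 to 56.7 CPM. In Stat5Adipoq replicate 4, Hadhb was 554 CPM against 498 to 509 CPM, and without this library Hadhb was still called. Eci1 was 472 CPM there against 526 to 534 CPM. Stat5a was 20.7 CPM in Stat5Adipoq replicate 1 against 15.8 to 16.6 CPM in the other Stat5Adipoq libraries.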

How the results depend on the processing

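Hadhb was called higher in all alternatives, Hadha and Acadl in some. DESeq2's Wald test called 660 genes and 5 members. Without control replicate 3 it called 680 genes and 8 members, adding Acadvl, Cpt2 and Decr1, all higher. It then also called 14 related genes, among them Slc25a20. With 1 library left out, edgeR called 185 to 442 genes and 1 to 4 members. Without both control replicates 3 and 5 the libraries of 10 members did not overlap (9 higher, 1 lower), where fewer libraries also raise the share of all genes without overlap, to 5.23% above and 4.92% below. No called gene changed direction. Of 903 fold changes refitted for named genes, 27 changed sign, all of 7 members that were not called. The log2 fold change was -0.010 for Mcat and -0.012 for Mlycd with library size only, 0.030 for Acad9 and -0.046 for Eci1 with the muscle score, 0.0034 and -0.070 without control replicates 3 and 5, and 0.018 and -0.017 with DESeq2 without control replicate 3. With 1 library left out it ranged from -0.0092 to 0.25 for Acsl5, -0.030 to 0.12 for Cpt1b, -0.047 to 0.026 for Acad9, -0.016 to 0.072 for Eci1, -0.0087 to 0.069 for Acot13, -0.062 to 0.043 for Mcat and -0.058 to 0.13 for Mlycd. The cause was not tested. Same-numbered libraries correlated between -0.224 and 0.179, and 2 of 5 controls correlated best with their own number. With 5 pairs this cannot decide whether the replicate numbers pair the libraries. A replicate block gave 273 genes and 2 members. Depth limits Cpt1a, with 267 counts on average, and Acsl6.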

Other observations

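Some members were highest in the libraries with the highest Ucp1, the gene of the thermogenic uncoupling protein. This pattern was chosen after the values were seen. The 4 libraries with the highest Ucp1 were control replicate 3 and Stat5Adipoq replicates 3, 4 and 5. Of the 33 tested members, 3 had their 4 highest values in these same libraries, namely Acot11, the synthetase Acsl5 and Cpt2. This is 9.09% of the members, beside 2.32% of all tested genes other than Ucp1. Cpt2 did so narrowly, with 801 CPM in control replicate 3 and 796 CPM in Stat5Adipoq replicate 1. Acsl5 was 1842 CPM in control replicate 3 and 1524, 1561 and 1481 CPM in Stat5Adipoq replicates 3, 4 and 5, and at most 1312 CPM in the other libraries. All genes of a library share its scaling, and control replicate 3 also held muscle transcripts. The part of either was not tested.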
